A study of Homo sapiens with 6 samples.

Results

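Ribosome footprints on 38 nuclear genes that encode subunits of respiratory complexes II to V were compared between control and TRMT6 knockdown cells. The 38 genes were taken by symbol from a list of subunits, after the Ensembl identifiers of the table had been matched to symbols, and all 38 were found among its 20289 genes. They comprise 4 subunits of complex II, 9 of complex III, 10 of complex IV and 15 of complex V. The cells were RKO, a human colorectal cancer line, and the 6 libraries form 2 groups of 3. One group carried a control short hairpin RNA (shControl) on the parental genotype, labelled WT, and the other a hairpin against TRMT6 (shTRMT6), labelled as a TRMT6 knockdown. All libraries thus come from 1 line and carry a hairpin, and the sources used here do not give the number or sequence of the hairpins or the time after their introduction. Whether replicate libraries were separate cultures is not stated in the labels, so each p-value is set against a spread between libraries that may be technical only.

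TRMT6 is a subunit of the methyltransferase that places the m1A mark on tRNA. Ribosome footprints are the pieces of mRNA that a translating ribosome protects from nuclease, and their level reflects both the amount of an mRNA and its ribosome load, which these values do not separate. A lower level in every cell and a strong loss in a part of the cells cannot be told apart either. The respiratory chain sits in the inner mitochondrial membrane. Complex II, succinate dehydrogenase, and complex III, the cytochrome bc1 complex, pass electrons towards cytochrome c, complex IV hands them to oxygen, and complex V, the ATP synthase, uses the proton gradient that complexes III and IV build. Complex II is encoded wholly in the nucleus, whereas complexes III, IV and V each combine nuclear subunits, made on cytosolic ribosomes and imported, with subunits translated inside the mitochondrion.

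Values are FPKM, fragments per kilobase of gene scaled to the mapped reads of the library, as the authors deposited them, so levels of different genes are on a scale per length. Changes are log2 fold changes of FPKM + 1, shTRMT6 against shControl, with their standard error, from limma fitted over the 11566 genes that reached 1 FPKM in 3 or more libraries. A gene was called at a Benjamini-Hochberg adjusted p under 0.05 over all those genes. From the steps between low values, depth was estimated at 2620000 to 3920000 reads in the control libraries and at 2580000 to 4080000 in those of the knockdown. At that depth each member rests on an estimated 94 to 7121 reads in each library, 94 being ATP5MC1 in 1 knockdown library. The table heads its columns NC and SH, which were read as shControl and shTRMT6 although no label spells this out. TRMT6 itself read 57.6, 58.4 and 95.3 FPKM under shControl and 20.7, 21.9 and 24.1 under shTRMT6 (log2 fold change -1.58, SE 0.27, limma adjusted p = 0.00301). The epithelial keratins KRT8 and KRT18, EPCAM and the intestinal factor CDX2 had footprints in every library, CDH1 and VIL1 were listed at 0 in every library, and KRT19 was listed at 0 in 5 of 6. PTPRC of leukocytes was listed at 0 throughout, and COL1A1 of fibroblasts and PECAM1 of endothelium stayed below 1 FPKM. VIM, a mesenchymal marker, had 65.9, 58.7 and 36.2 FPKM in the controls and 29.6, 34.4 and 28.9 after knockdown, without overlap and without a call (log2 fold change -0.73, limma adjusted p = 0.0658), and its part in the results was not tested.

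After knockdown 18 of the 38 members were lower, 1 was higher and 19 did not pass. All 38 passed the filter on low values. Among all tested genes 9.04% were called lower and 26.5% higher. The median log2 fold change was -0.64 over the members, 0.39 over all tested genes, and -0.55, -0.13, -0.52 and -0.99 in complexes II, III, IV and V. The ATP synthase held most of the calls, with 11 of its 15 members lower, against 1 of 4 in complex II, 3 of 9 in complex III and 3 of 10 in complex IV. The only member called higher was UQCR11 of complex III, and with median scaling it was not called. Groups did not overlap, with every knockdown library below every control library, for 19 members, the 18 called lower and SDHB, where 14.3% of all tested genes did so. The reverse held for 2 members, UQCR11 and UQCRQ, against 37.0% of all tested genes. A difference between complexes in these counts was not tested.

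**Figure D1:**
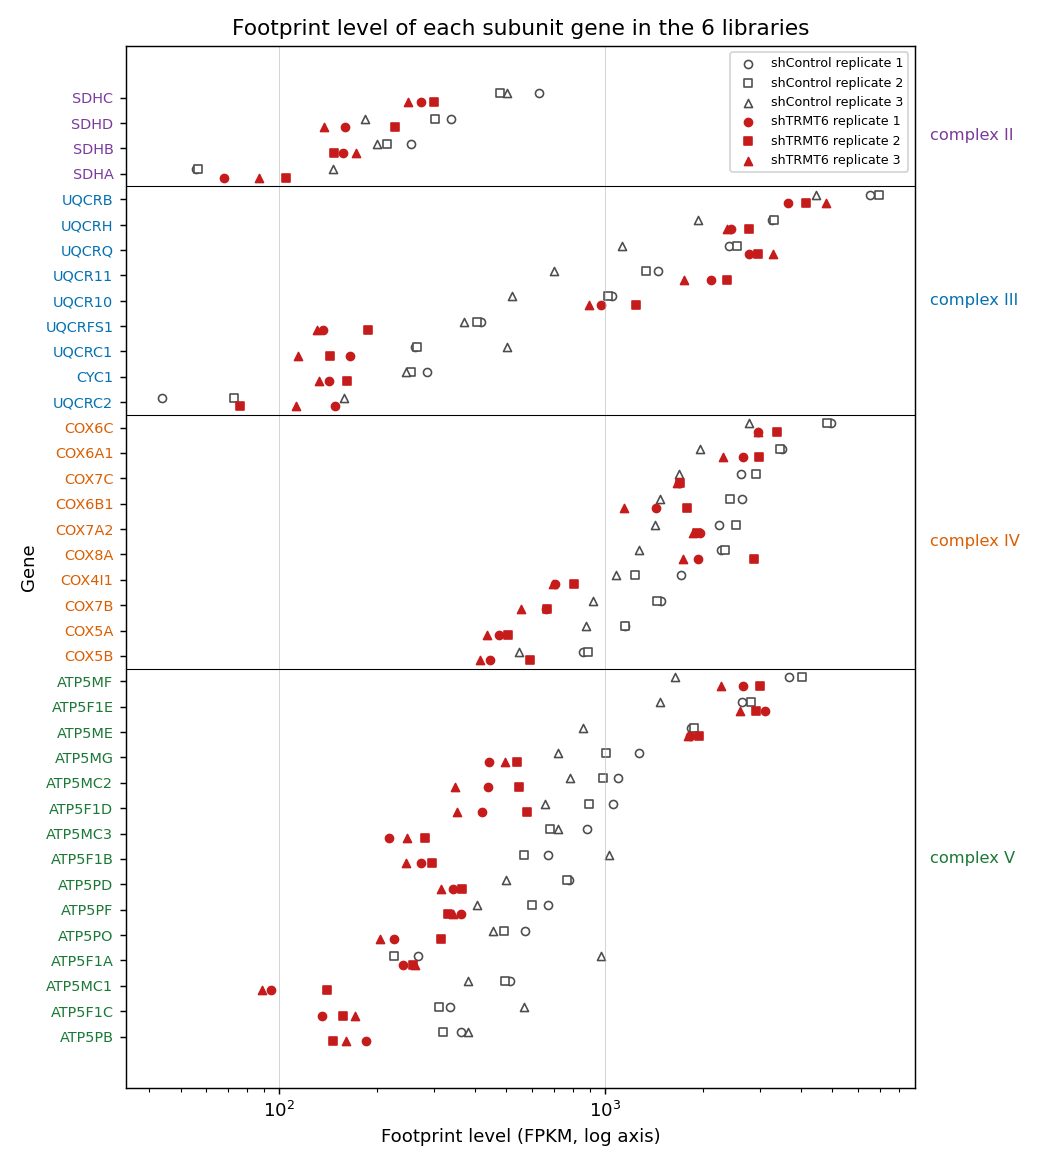
Footprint level in FPKM (log axis) of the 38 subunit genes in 6 libraries, with open grey symbols for shControl and filled red symbols for shTRMT6, the shape giving the replicate, and genes ordered within a complex by their control mean. The red symbols lie left of all grey ones for 19 genes, 11 of them in complex V, and the grey triangles of shControl replicate 3 often lie apart from the other control libraries.

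**Figure D2:**
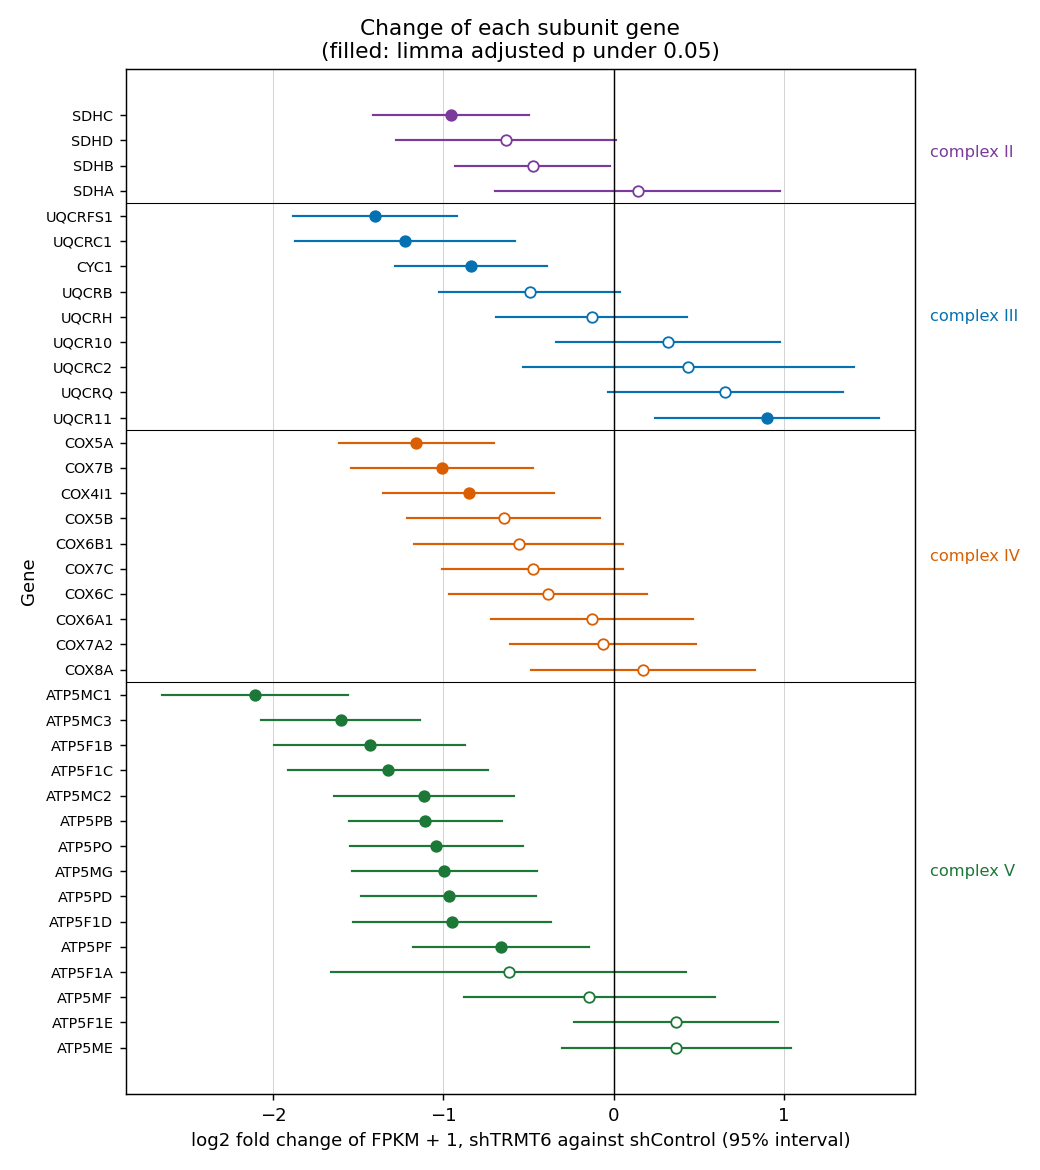
Log2 fold change of FPKM + 1 for each gene with its 95% interval from limma, n = 3 libraries per group, filled where the adjusted p is under 0.05. In complex V 11 of 15 points are filled and left of 0, and UQCR11 is the only filled point right of 0.

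Within the control group, shControl replicate 3 stood apart on these genes in a way that followed coding length. It was the lowest control library for 29 members and the highest for 7, against 47.0% and 31.9% of all tested genes. For ATP5F1A, the alpha subunit of the F1 head and a long gene of 1659 coding nt, replicate 3 had 977 FPKM and the other controls 267 and 226. For ATP5MF, membrane subunit f with 264 coding nt, it had 1648 FPKM against 3677 and 4029. That value is uncertain, because a readthrough gene with 121 coding bases in common, ATP5MF-PTCD1, had 440.6 FPKM in replicate 3 against 10.3 and 14.4. Over the 38 members the log2 ratio of replicate 3 to the mean of the other controls had a Spearman's rho of 0.90 with coding length, and over 11355 tested genes with a coding length 0.29, both given as descriptions of 1 library. Without this library 27 members were lower and 1 higher (12.4% lower and 28.6% higher of all tested genes), and the 18 members called lower with all libraries were all among the 27. The count then was 3 of 4 in complex II, 5 of 9 in complex III, 7 of 10 in complex IV and 12 of 15 in complex V.

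**Figure D3:**
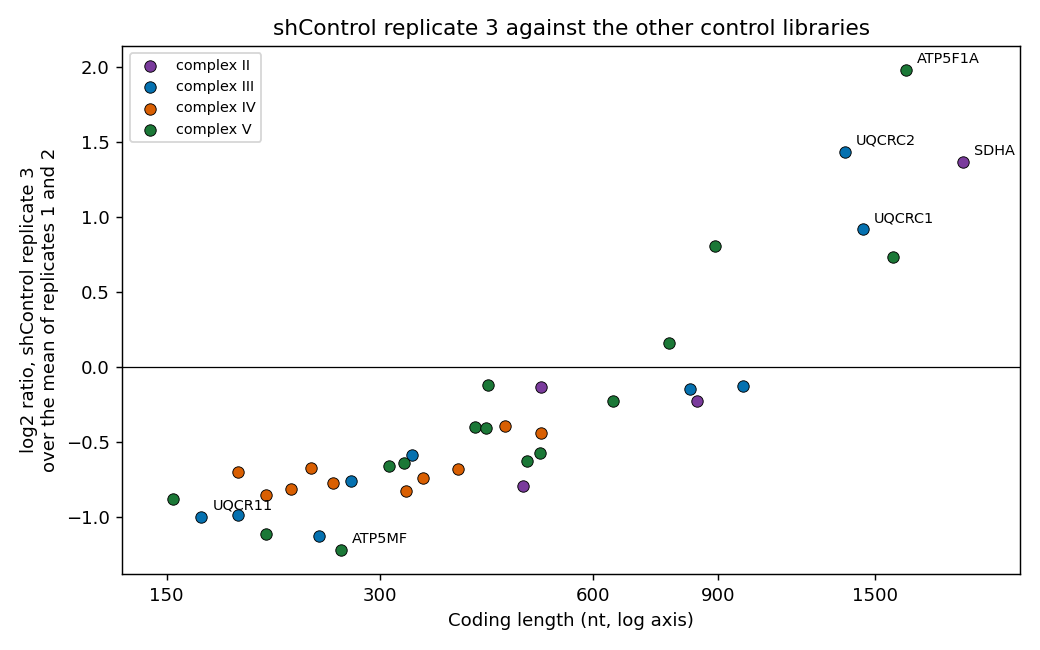
Log2 ratio of shControl replicate 3 to the mean of shControl replicates 1 and 2 (vertical axis) against coding length in nt (log axis), 1 point per subunit gene, coloured by complex. Points of genes under 300 nt all lie below 0, and the highest point is ATP5F1A.

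In complex II, SDHC alone was called, where 9.04% of all tested genes were lower and 26.5% higher. SDHC, a haem-binding membrane anchor (ENSG00000143252, chr1:161314257-161375340, plus strand), had 628, 476 and 502 FPKM in the controls against 274, 299 and 249.9 after knockdown. It fell from 536 ± 81.5 to 274 ± 24.5 FPKM (± SD over 3 libraries; log2 fold change -0.96, SE 0.20, limma adjusted p = 0.00728), with all knockdown libraries below all controls. The other anchor, SDHD, had 338, 302 and 184 FPKM against 159, 227 and 138, so that the groups overlapped through shControl replicate 3 (log2 fold change -0.63, 95% interval -1.28 to 0.012, limma adjusted p = 0.113). SDHB, the iron-sulfur protein of the catalytic head, had 255, 214 and 200.3 FPKM against 158, 148 and 173, without overlap but also without a call (log2 fold change -0.48, 95% interval -0.93 to -0.020, limma adjusted p = 0.0946). SDHA, the flavoprotein that oxidizes succinate, had the lowest mean of the 38 members in both groups, with 55.7, 56.5 and 146 FPKM in the controls and 68.0, 105 and 87.0 in the knockdown. Its control value in replicate 3 exceeded every knockdown value and the other controls lay below them all (log2 fold change 0.14, 95% interval -0.69 to 0.98), and with median scaling the value was -0.35. Without shControl replicate 3, SDHB and SDHD were called lower (log2 fold changes -0.55 and -0.90, limma adjusted p = 0.0281 and 0.0158), and SDHA had 0.60 (limma adjusted p = 0.0615).

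In complex III 3 of the 4 redox and core subunits fell, and of the 5 accessory subunits none fell and 1 rose, where 9.04% of all tested genes were lower and 26.5% higher. A difference between these sets was not tested, and the first have 822 to 1440 coding nt and the second 168 to 333. UQCRFS1, the Rieske iron-sulfur protein that takes electrons from ubiquinol (ENSG00000169021, chr19:29205321-29213541, minus strand), had 417, 405 and 371 FPKM in the controls and 137, 188 and 131 in the knockdown. It was 2.62-fold lower in the mean (log2 fold change -1.40, SE 0.22, limma adjusted p = 0.00207), and its control libraries lay close together. UQCRC1, core protein 1, had 263, 267 and 501 FPKM against 166, 143 and 114, with its highest control value in replicate 3 (log2 fold change -1.22, SE 0.29, limma adjusted p = 0.0108). CYC1, cytochrome c1, which passes electrons on to cytochrome c, fell from 262 ± 21.0 to 146 ± 14.9 FPKM (± SD over 3 libraries; log2 fold change -0.84). The call of CYC1 ended without shTRMT6 replicate 1 or 3 (limma adjusted p = 0.0560 and 0.0565). UQCRC2, core protein 2, which pairs with UQCRC1 in the complex, did not pass. It had 43.8, 72.8 and 159 FPKM in the controls and 149, 76.3 and 113 in the knockdown, overlapping over nearly the whole range (log2 fold change 0.44, 95% interval -0.53 to 1.41).

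UQCR11, a small accessory subunit at the membrane, had 1459, 1340.0 and 697 FPKM in the controls against 2126, 2372 and 1758 after knockdown. It rose from 1165 ± 409.7 to 2085 ± 309 FPKM (± SD over 3 libraries; log2 fold change 0.90, SE 0.29, limma adjusted p = 0.0383), and the groups did not overlap. Its call ended with median scaling (0.40, limma adjusted p = 0.316), without the low-value filter (limma adjusted p = 0.0674) and when shTRMT6 replicate 1, 2 or 3 was left out (limma adjusted p = 0.106, 0.117 and 0.0629). UQCRQ, which lies beside cytochrome b, had 2404, 2542 and 1128 FPKM against 2765, 2963 and 3294, also without overlap but without a call (log2 fold change 0.66, 95% interval -0.034 to 1.34). UQCR10 had 1050.0, 1026 and 521 FPKM against 973, 1249.5 and 898 (log2 fold change 0.32, 95% interval -0.34 to 0.98), with only shControl replicate 3 apart. UQCRH, the hinge protein that aids the contact of cytochrome c1 with cytochrome c, had 3266, 3311 and 1934 FPKM against 2442, 2765 and 2366 (log2 fold change -0.13, 95% interval -0.69 to 0.43). The near-identical gene UQCRHL was listed at 0 in every library, so how reads of the pair were divided is uncertain. UQCRB had the highest mean of all 38 members in both groups, 5974 ± 1323 and 4190.5 ± 558 FPKM (± SD over 3 libraries; log2 fold change -0.49, 95% interval -1.03 to 0.040). With median scaling UQCRB was called lower (-0.99, limma adjusted p = 0.0119). Without shControl replicate 3, UQCRB and UQCRH were called lower (log2 fold changes -0.69 and -0.38, limma adjusted p = 0.00948 and 0.0457).

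Summed levels of the complex were set by its accessory genes. The 4 redox and core genes summed to 1095 ± 158 FPKM in shControl and 552 ± 54.1 in shTRMT6, and the 5 accessory genes to 12867 ± 3576 and 12847 ± 799 FPKM (SD, n = 3 each). Complex III as a whole had 13962 ± 3418 and 13399 ± 775 FPKM. Within a library, the ratio of UQCR11 to UQCRFS1 was 3.50, 3.31 and 1.88 in the controls and 15.5, 12.7 and 13.4 in the knockdown. A single factor applied to a whole library cannot change this ratio. A difference between libraries that follows coding length can, as UQCR11 has 168 coding nt and UQCRFS1 822. This pair was chosen after its values were seen.

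Complex IV, whose nuclear subunits surround a core made in the mitochondrion, had 3 of 10 members lower, beside 9.04% of all tested genes. COX5A, a matrix-facing subunit (ENSG00000178741, chr15:74919791-74938168, minus strand), had 1156, 1151 and 876 FPKM in the controls and 474, 505 and 436 in the knockdown, with wide separation (log2 fold change -1.16, SE 0.20, limma adjusted p = 0.00342). COX7B, a small subunit with a single membrane helix, had 1490.4, 1449 and 919 FPKM against 659, 664 and 555 (log2 fold change -1.01, SE 0.24, limma adjusted p = 0.0108), and its call ended without shTRMT6 replicate 3 (limma adjusted p = 0.0503). COX4I1, a subunit through which ATP regulates the enzyme, fell from 1347 ± 326 to 734 ± 60.7 FPKM (± SD over 3 libraries; log2 fold change -0.85, limma adjusted p = 0.0166). It did not pass without shControl replicate 1 or shTRMT6 replicate 1 or 3 (limma adjusted p = 0.0657, 0.0717 and 0.0658), nor once trends with level and coding length were taken out (-0.31, limma adjusted p = 0.126) or with quantile normalization (-0.35, limma adjusted p = 0.146). The zinc-binding subunit COX5B had a log2 fold change of -0.64 and did not pass (limma adjusted p = 0.0729), though it did with the replicate number as a block (limma adjusted p = 0.0424) and without shControl replicate 3 (-0.87, limma adjusted p = 0.00735).

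The other 6 members of complex IV, like COX5B, overlapped between the groups. COX7A2 had 2239.8, 2524 and 1426 FPKM in the controls and 1966, 1923 and 1872 in the knockdown, where the SD over 3 libraries was 47.3 FPKM (log2 fold change -0.063, 95% interval -0.61 to 0.48). COX6A1 had 3509.8, 3464 and 1958 FPKM against 2661, 2985 and 2302 (log2 fold change -0.13, 95% interval -0.72 to 0.47). For both, the knockdown values lay between shControl replicate 3 and the other controls. COX6B1, which faces the intermembrane space, COX6C and COX7C had log2 fold changes of -0.56, -0.39 and -0.48. Without shControl replicate 3 these were -0.82, -0.66 and -0.71 and all passed (limma adjusted p = 0.0131, 0.00669 and 0.00447). COX8A had 1965 ± 596 and 2188 ± 605 FPKM (± SD over 3 libraries; log2 fold change 0.17, 95% interval -0.49 to 0.83). Summed over its 10 genes the complex had 20230.2 ± 5375 FPKM in shControl and 15317 ± 1749.7 in shTRMT6. The groups overlapped in this sum, with 14026 FPKM in shControl replicate 3 against 14934 and 17226 in shTRMT6 replicates 1 and 2.

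In the ATP synthase every gene of the c ring and of the peripheral stalk was lower, and the head and the membrane subunits were mixed. Among all tested genes 9.04% were lower and 26.5% higher. The c ring genes have 408 to 426 coding nt and the stalk genes 324 to 768. Of all tested genes from 300 to under 600 nt 25.4% were lower, and from 600 to under 900 nt 20.6%. The c subunit forms the rotating ring through which protons pass, and 3 genes encode it, ATP5MC1 (ENSG00000159199, chr17:48892765-48895871, plus strand), ATP5MC2 (ENSG00000135390, chr12:53632726-53677408, minus strand) and ATP5MC3 (ENSG00000154518, chr2:175176258-175184607, minus strand; GENCODE 29, GRCh38). Their products differ in the import signal, which is cut off, and share the mature protein. In GENCODE 29 the last 77 codons of the 3 coding sequences encode the same amino acids. The last 75 of them, which follow 61, 66 and 67 codons, were taken as the shared part. The 225 bases of this shared part are shown because footprints on it come from 3 mRNAs for 1 protein, and capitals mark the 52 positions at which the 3 genes do not all have the same base.
ATP5MC1: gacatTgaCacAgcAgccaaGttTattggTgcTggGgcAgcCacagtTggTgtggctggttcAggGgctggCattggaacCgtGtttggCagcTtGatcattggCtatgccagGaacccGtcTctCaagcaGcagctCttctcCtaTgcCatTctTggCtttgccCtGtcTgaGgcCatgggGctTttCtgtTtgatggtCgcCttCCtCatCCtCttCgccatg
ATP5MC2: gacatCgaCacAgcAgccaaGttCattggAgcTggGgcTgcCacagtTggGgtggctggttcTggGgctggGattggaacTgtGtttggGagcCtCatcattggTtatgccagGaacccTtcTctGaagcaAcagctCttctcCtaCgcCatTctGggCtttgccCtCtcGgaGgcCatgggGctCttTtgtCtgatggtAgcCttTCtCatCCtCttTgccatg
ATP5MC3: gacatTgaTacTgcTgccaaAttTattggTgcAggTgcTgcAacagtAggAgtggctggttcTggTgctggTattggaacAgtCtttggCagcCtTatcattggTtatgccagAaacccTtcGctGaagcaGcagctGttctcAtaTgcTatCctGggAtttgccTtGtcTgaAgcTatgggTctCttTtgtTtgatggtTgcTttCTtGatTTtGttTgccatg
In this part ATP5MC1 and ATP5MC2 have 200 of 225 bases in common and ATP5MC3 has 183 in common with each. No window of 28 bases of any of the 3 coding sequences is found unchanged in another, so full-length footprints can be told apart where they are read without error, and shorter ones less surely.

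ATP5MC1 had 513, 495 and 382 FPKM in the controls against 94.8, 140.4 and 89.0 after knockdown. It was 4.29-fold lower in the mean, the lowest log2 fold change of the 38 members (-2.11, SE 0.24, limma adjusted p = 0.000832). ATP5MC3 had 885, 678 and 718 FPKM against 218, 281 and 248, 3.05-fold lower (log2 fold change -1.60, SE 0.21, limma adjusted p = 0.00116). ATP5MC2, the gene with the highest level of the 3, had 1099, 991 and 786 FPKM against 439.6, 547 and 348, 2.15-fold lower (log2 fold change -1.12, SE 0.24, limma adjusted p = 0.00705). None of the 3 overlapped between the groups, and together they went from 2182 ± 306 to 802 ± 148 FPKM (SD, n = 3 each). ATP5MC1 made up 20.6, 22.9 and 20.3% of that sum in the controls and 12.6, 14.5 and 13.0% in the knockdown libraries. The share of ATP5MC2 went the other way, from 43.8 ± 2.08% to 55.2 ± 3.95%, also without overlap, while that of ATP5MC3 overlapped (35.0 ± 3.41% and 31.4 ± 4.15%; SD, n = 3 each). These shares and the ratios within a library given here were not tested.

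**Figure D4:**
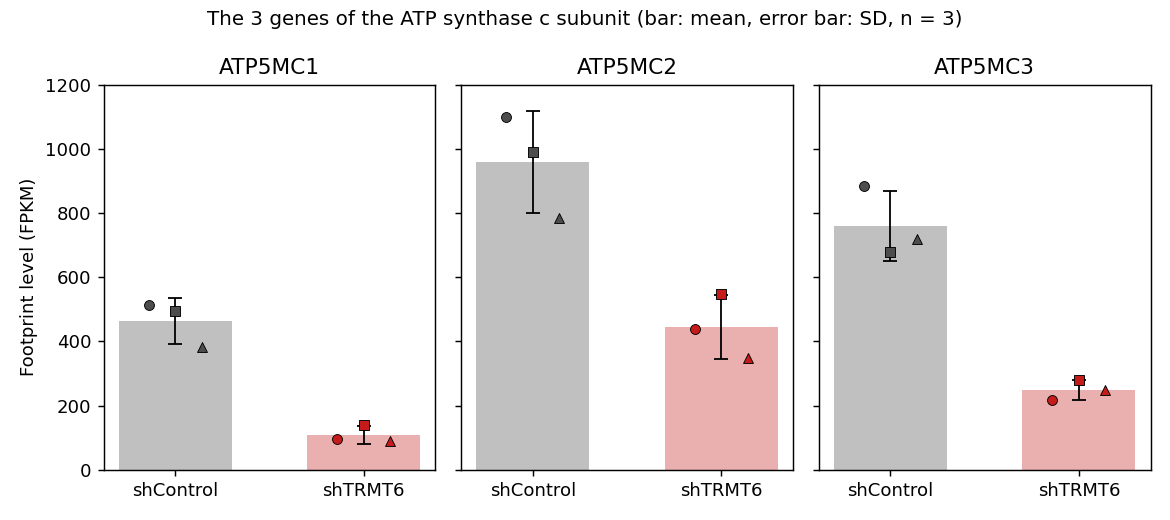
Footprint level in FPKM of the 3 c subunit genes, with bars for the mean, error bars for the SD (n = 3) and symbols for the libraries, shControl in grey and shTRMT6 in red. All red symbols lie below all grey ones in each panel, and ATP5MC1 has the lowest red bar.

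The F1 head, which faces the matrix and makes ATP, had 3 of 5 members lower, beside 9.04% of all tested genes. ATP5F1B, the catalytic beta subunit, had 672, 568 and 1032 FPKM in the controls and 274, 295 and 246 in the knockdown (log2 fold change -1.43, SE 0.25, limma adjusted p = 0.00334). ATP5F1C, the gamma subunit that turns inside the head, had 336, 309.8 and 564 FPKM against 136, 158 and 172 (log2 fold change -1.33, SE 0.26, limma adjusted p = 0.00541). In both genes shControl replicate 3 was the highest library, and both passed without it (-1.19 and -1.06). The delta subunit ATP5F1D fell from 869 ± 204 to 449.8 ± 115 FPKM (± SD over 3 libraries; log2 fold change -0.95). Its call ended without shControl replicate 1 or shTRMT6 replicate 1 or 3 (limma adjusted p = 0.0725, 0.0715 and 0.0846) and with trends removed or quantile normalization (limma adjusted p = 0.0646 and 0.0520).

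The partner of the beta subunit, ATP5F1A, gave no such result. It had 267, 226 and 977 FPKM in the controls and 241, 259 and 262 in the knockdown, where its 3 libraries lay close together. Its mean change rests on shControl replicate 3, since the log2 fold change was -0.62 with that library (95% interval -1.66 to 0.43, limma adjusted p = 0.324) and 0.046 without it. The ratio of ATP5F1A to ATP5F1B, also chosen after its values were seen, was 0.397, 0.398 and 0.946 in the controls and 0.879, 0.877 and 1.07 in the knockdown libraries. ATP5F1E, the epsilon subunit and the shortest member with 153 coding nt, had 2636, 2810.0 and 1478 FPKM against 3100.4, 2916 and 2599 (log2 fold change 0.37, 95% interval -0.23 to 0.97), and without shControl replicate 3 the value was 0.074.

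All 4 genes of the peripheral stalk, which holds the head still against the turning ring, were lower, beside 9.04% of all tested genes. ATP5PB, subunit b, had 363, 319.6 and 381 FPKM in the controls and 186, 147 and 161 in the knockdown (log2 fold change -1.11, SE 0.20, limma adjusted p = 0.00397). ATP5PO, the OSCP subunit at the top of the stalk, fell from 506 ± 60.0 to 248 ± 58.1 FPKM and ATP5PD, subunit d, from 681 ± 158 to 341 ± 24.7 FPKM (± SD over 3 libraries; log2 fold changes -1.04 and -0.97). ATP5PF, coupling factor 6, was just past the threshold (-0.66, limma adjusted p = 0.0494). It lost its call without any single library other than shControl replicate 3, at adjusted p-values from 0.120 to 0.166 by limma, and with trends removed or quantile normalization (limma adjusted p = 0.105 and 0.186). The same held without the low-value filter and with a pseudocount of 0.1 (limma adjusted p = 0.0596 and 0.0525). The stalk summed to 2099 ± 327 FPKM in shControl and 1099 ± 68.2 in shTRMT6.

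Of subunits e, f and g, which shape the membrane where synthases pair, only ATP5MG, subunit g, was lower, beside 9.04% of all tested genes. It fell from 1003 ± 278 to 492 ± 49.7 FPKM (± SD over 3 libraries; log2 fold change -0.99, limma adjusted p = 0.0124), a call that ended without shTRMT6 replicate 1 (limma adjusted p = 0.0597). ATP5MF had 3677, 4029 and 1648 FPKM against 2652, 3006 and 2277 (log2 fold change -0.14, 95% interval -0.88 to 0.60). A readthrough gene, ATP5MF-PTCD1, has 121 coding bases in common with ATP5MF and was listed at 10.3, 14.4 and 440.6 FPKM in the controls and 0, 22.3 and 39.4 in the knockdown, so the level of ATP5MF is uncertain, most of all in shControl replicate 3. Without that library ATP5MF was called lower (-0.55, limma adjusted p = 0.0237). ATP5ME, subunit e, had 1529.7 ± 579.8 and 1861 ± 71.4 FPKM (± SD over 3 libraries; log2 fold change 0.37, 95% interval -0.31 to 1.04). Within a library the ratio of ATP5ME to ATP5MG, chosen after its values were seen, was 1.44, 1.87 and 1.19 in the controls and 4.16, 3.59 and 3.66 in the knockdown. Over its 15 genes complex V had 14760.1 ± 2784 FPKM in shControl and 10901 ± 952 in shTRMT6. The groups overlapped in this sum, with 11562 FPKM in shControl replicate 3 and 11817 in shTRMT6 replicate 2.

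The members are given here by coding length, in classes set after the values were seen and with no test. Of 12 members under 300 coding nt 1 was lower, COX7B, and 1 higher, UQCR11, with a median log2 fold change of 0.021. Of 15 members from 300 to under 600 nt 10 were lower, of 5 from 600 to under 900 nt 4, and of 6 of 900 nt and above 3, with medians of -0.95, -1.11 and -0.73. Among all tested genes with a coding length, the classes in the same order held 250, 1285, 1605 and 8215 genes. Of these 6.00%, 25.4%, 20.6% and 4.33% were lower, with median log2 fold changes of 0.077, -0.19, -0.029 and 0.54. In the classes from 300 to under 600 nt and from 600 to under 900 nt the median of the members lay below that of all tested genes. The class of 900 nt and above does not compare genes of like length, since its 6 members have 975 to 1992 coding nt and all genes in it extend to far greater lengths.

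Across the 38 members the log2 fold change had a Spearman's rho of -0.50 with coding length, while across 11355 tested genes rho was 0.37. The members' lengths go with their levels (rho -0.79) and with the deviation of shControl replicate 3. Without that library rho between change and length was -0.28 over the members, nearer to 0, and 0.46 over all tested genes. With the trends with level and coding length removed, rho was -0.61 over the members, further from 0. That step takes rho to near 0 over all tested genes (0.0027). With all libraries and no trend removed, rho between the members' change and the third-position GC content of their codons was 0.28. These coefficients describe genes measured in the same libraries and carry no test. When the trends with level and coding length were removed from each library, 15 members were lower and 5 higher, against 13.8% and 13.6% of 11355 tested genes. The 15 were all among the 18, with COX4I1, ATP5F1D and ATP5PF lost, and the 5 higher were UQCR11, UQCRQ, COX6A1, COX7A2 and ATP5ME. Quantile normalization left the same 15 lower, and 6 members were higher, against 14.7% and 13.9% of all tested genes.

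**Figure D5:**
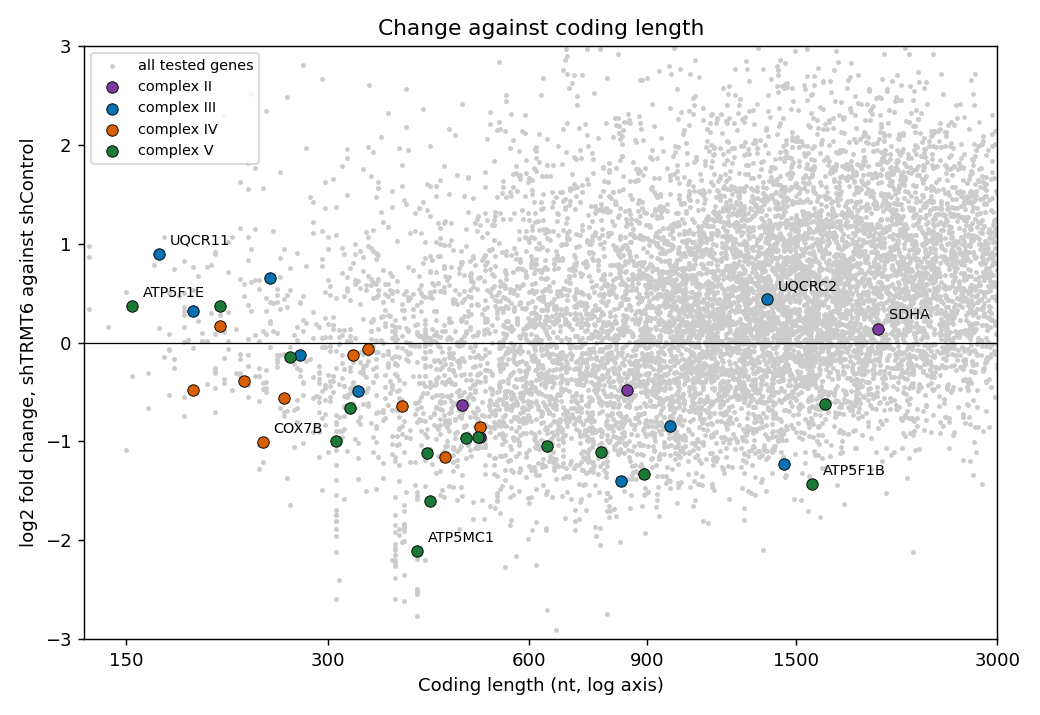
Log2 fold change of FPKM + 1 (vertical axis) against coding length in nt (log axis) for the subunit genes, coloured by complex, over all tested genes in grey (up to 3000 nt and within 3 log2 units). Most members above 300 nt lie below 0, whereas 6 of the 12 under 300 nt lie above it.

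The coding sequences of UQCR11 (ENSG00000127540, chr19:1597172-1605490, minus strand) and COX7B (ENSG00000131174, chrX:77899438-77907373, plus strand) are shown because they are the only called members under 300 nt and went opposite ways. Each is given whole without its stop codon, and capitals mark G or C as the third base of a codon.
UQCR11: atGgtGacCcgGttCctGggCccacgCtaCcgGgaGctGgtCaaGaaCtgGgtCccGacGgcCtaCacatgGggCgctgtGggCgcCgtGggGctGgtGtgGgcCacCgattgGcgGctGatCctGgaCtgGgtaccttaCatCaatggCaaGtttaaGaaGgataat
COX7B: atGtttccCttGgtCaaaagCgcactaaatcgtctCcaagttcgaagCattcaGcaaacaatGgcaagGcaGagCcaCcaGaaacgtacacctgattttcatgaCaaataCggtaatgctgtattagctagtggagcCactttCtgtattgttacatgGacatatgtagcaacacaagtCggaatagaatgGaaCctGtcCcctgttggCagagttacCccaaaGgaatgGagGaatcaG
The sequence of UQCR11 has 168 bases and that of COX7B 240, and G or C ends 82.1% and 37.5% of their codons. Among the 10 members under 300 nt without a call this share ran from 48.0% in COX6C to 88.9% in UQCR10.

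Scaling each library to its median shifted log2 fold changes downwards, the median of all tested genes going from 0.39 to -0.07. Relative to that median 25 members were lower and none higher (19.7% and 13.1% of all tested genes), with 3 of 4 in complex II, 4 of 9 in complex III, 7 of 10 in complex IV and 11 of 15 in complex V. The 18 members called lower without scaling were all among the 25. The 7 further members were SDHB, SDHD, UQCRB, COX5B, COX6B1, COX6C and COX7C.

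Other genes of the pathway were counted from lists. Of 37 nuclear subunits of complex I, the entry point for NADH, 17 were lower and none higher, with a median log2 fold change of -0.70, beside 9.04% lower and 26.5% higher of all tested genes. NDUFV2, a subunit of the NADH-oxidizing arm, went from 658 ± 42.9 to 285 ± 19.3 FPKM and NDUFB8 from 483 ± 69.6 to 209 ± 14.2 FPKM (± SD over 3 libraries; log2 fold changes -1.20 and -1.20). Of 41 assembly factors of complexes II to V, proteins that help to build a complex without staying in it, 4 were lower and 2 higher, with a median of -0.04. The share called lower was thus near the 9.04% of all tested genes, and the share called higher was under their 26.5%. TMEM70, which aids assembly of the c ring, had 179, 168 and 146 FPKM in the controls and 52.9, 74.5 and 64.7 in the knockdown (log2 fold change -1.36, SE 0.22, limma adjusted p = 0.00265). BCS1L, which inserts the Rieske protein UQCRFS1 into complex III, had 26.6, 37.6 and 44.5 FPKM against 107, 80.8 and 90.3 (log2 fold change 1.35, SE 0.26, limma adjusted p = 0.00486), opposite in sign to UQCRFS1. In complex IV assembly, COA6, CMC1 and SCO2 were lower (log2 fold changes -1.28, -0.87 and -0.71), and TTC19, an assembly factor of complex III, was higher (0.67).

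Of 15 further subunits, isoforms and regulators of complexes III to V and cytochrome c, 14 were in the table and 7 tested, and none was called. Among all tested genes 9.04% were lower and 26.5% higher, and 7 genes are too few to set against these shares. ATP5IF1, which inhibits the synthase when it would run backwards, had 1318, 1412 and 797 FPKM in the controls and 824, 991 and 726 after knockdown (log2 fold change -0.44, limma adjusted p = 0.209), overlapping through shControl replicate 3. ATP5MJ, a small membrane subunit of the synthase, had a log2 fold change of -0.53 (limma adjusted p = 0.110). ATP5MK, another small membrane subunit, had 976, 959 and 481 FPKM in the controls and 1261, 1021 and 989 after knockdown, higher without overlap but without a call (log2 fold change 0.50, limma adjusted p = 0.203). Cytochrome c itself, CYCS, had 1046, 1004 and 754 FPKM in the controls and 759.7, 911 and 748 in the knockdown (log2 fold change -0.20, limma adjusted p = 0.476). The tissue isoforms COX4I2, COX6A2, COX7A1, COX7B2 and COX8C were listed at 0 in every library. The 6 mitochondrially encoded subunits of complexes III to V were all called higher, beside 26.5% of all tested genes, the median change being 2.76 on the log2 scale. Their control libraries differed among themselves, MT-CO1 having 5228, 9611 and 3065 FPKM there and 36760, 27226 and 34447 after knockdown. For complex IV, the sum of MT-CO1, MT-CO2 and MT-CO3 divided by that of the 10 nuclear genes was 0.303, 0.536 and 0.303 in the controls and 3.47, 2.29 and 3.42 in the knockdown libraries. For complex V without MT-ATP8, whose reading frame overlaps that of MT-ATP6, it was 0.0778, 0.123 and 0.0618 against 0.930, 0.791 and 0.733. These 2 ratios compare levels within a library and did not overlap between the groups.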

How the data were processed

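Per the labels' protocols, lysate of RKO cells was digested with RNase I, and protected fragments above 17 nt were made into libraries with a small RNA kit. The authors deposited FPKM per gene, rounded to 2 decimals, per the file headers. Tools named in the submitters' processing notes are RSEM, STAR and fastp. The sources used here do not give their versions, the genome build, the annotation, the use of strand or the handling of near-identical genes. FPKM is relative to a library, so a large rise of a few genes lowers the rest. Replicate numbers are those of the columns NC and SH.

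Symbols were found for 20257 of 20289 identifiers. Positions, coding lengths and coding sequences came from GENCODE 29 (GRCh38), which may differ from the authors' annotation. One transcript per gene was used, and 19423 genes had a coding length. Protein sequences were not used here. FPKM holds no counts. Reads were estimated from the steps between low values of genes with 1 coding transcript of 300 to 3000 nt, of which 65.4% to 77.3% came within 0.1 of a whole read. Intervals are 95% intervals from limma.

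Values as log2(FPKM + 1) were fitted by limma 3.58.1 (R 4.3.3) with a term for group and none for replicate, using eBayes with trend, a step tested on simulated data. Python 3.11.15, pandas 2.3.3, numpy 2.4.6, Biopython 1.88 and matplotlib 3.10.9 were used. The members and lists were chosen with earlier results of these data known, so no list is tested. Per the rule for named genes, values in each library are given for complex II, for the c subunit genes, and in complexes III to V for up to 5 called members with a log2 fold change of size 1 or more, members called higher and the 2 members nearest 0. Others were named after their values were seen. Alternatives were other scalings, filters, a pseudocount of 0.1, thresholds, the replicate number as a block and leaving out each library.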

Additional observations from a re-analysis of the deposited data

How the results depend on the processing

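Of the 19 members called, 0 changed direction in any alternative, and 12 kept an adjusted p under 0.05 in every refit: ATP5MC1, ATP5MC2, ATP5MC3, ATP5F1B, ATP5F1C, ATP5PB, ATP5PD, ATP5PO, COX5A, SDHC, UQCRC1 and UQCRFS1. At an adjusted p under 0.01, 10 members were lower (1 in complex II, 1 in complex III, 1 in complex IV and 7 in complex V) and 0 higher, with 473 genes lower and 1421 higher among all tested. At an adjusted p under 0.1 complex II had 2 lower, with 1381 genes lower and 3880 higher among all tested. Median scaling gave 0 members higher, 3 lower in complex II and 7 in complex IV, and 2275 genes lower and 1520 higher in all, against 1046 and 3069. The number of members called higher, 1 in the fit as reported, was 2 with shares of the library sum, 6 with quantile normalization, 5 with trends removed and 0 without the low-value filter. Among all tested genes quantile normalization gave 1700 lower and 1602 higher, and trend removal 1539 higher. Shares of the library sum gave 3487 genes higher, and the fit without the low-value filter 2822. Leaving out 1 library at a time gave 13 to 27 members lower and 0 to 1 higher. The lower ones numbered 1 to 3 in complex II, 2 to 5 in complex III, 1 to 7 in complex IV and 8 to 12 in complex V. Over all genes 590 to 1427 were lower and 1769 to 3290 higher. The cause of these shifts was not tested.

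Log2 fold changes of members that were not called turned sign under some settings. With median scaling they were SDHA -0.35, UQCRC2 -0.052, UQCR10 -0.18, COX8A -0.32, ATP5F1E -0.13 and ATP5ME -0.13. Quantile normalization gave SDHA -0.10, UQCRH 0.41, COX6A1 0.38, COX6B1 0.072, COX6C 0.050, COX7A2 0.57, COX7C 0.12 and ATP5MF 0.39. Trend removal gave SDHA -0.30, UQCRB 0.014, UQCRH 0.25, COX6A1 0.35, COX7A2 0.42 and ATP5MF 0.22, and shares of the library sum gave COX7A2 0.016. Leaving out single libraries gave ranges of -0.090 to 0.60 for SDHA, -0.38 to 0.0029 for UQCRH, -0.012 to 0.49 for UQCR10, -0.40 to 0.016 for COX6A1, -0.31 to 0.10 for COX7A2, -0.11 to 0.32 for COX8A, -1.01 to 0.046 for ATP5F1A, -0.0032 to 0.56 for ATP5ME and -0.55 to 0.094 for ATP5MF.

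The labels do not say whether like replicate numbers of the 2 groups belong together. Deviations from the group mean correlated at 0.012, 0.013 and 0.10 for numbers 1, 2 and 3. For unlike numbers the range was -0.14 to 0.13, so these values cannot show whether the libraries were paired. With the replicate number as a block 19 members were lower and 1 higher, COX5B being added. Over all tested genes 1065 were then lower and 3146 higher.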

Other observations

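Regulators of respiratory genes were read from a list of 11 genes, of which 10 were tested, 1 was higher and 1 lower. Among all tested genes 26.5% were higher and 9.04% lower, and 10 genes are too few to set against these shares. TFAM, which packs mitochondrial DNA and aids its transcription, had 156, 151 and 149 FPKM in the controls against 89.5, 65.0 and 98.1 after knockdown (log2 fold change -0.86, SE 0.23, limma adjusted p = 0.0163). PPRC1, a coactivator of the PGC-1 family, had 14.9, 24.2 and 14.7 FPKM against 57.5, 52.3 and 59.7 (log2 fold change 1.64, SE 0.27, limma adjusted p = 0.00268). Neither overlapped between the groups. POLRMT, the mitochondrial RNA polymerase, had 10.7, 16.1 and 35.1 FPKM against 37.6, 46.8 and 38.2, without overlap and just short of the threshold (log2 fold change 1.11, limma adjusted p = 0.05004). PPARGC1A was listed at 0 in every library.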
